A study of Mus musculus with 120 samples.

Results

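Small RNA of whole mouse testis cloned after treatment with RppH was compared with untreated small RNA of the same tissue. The comparison takes 8 of the 120 samples of the series, which are the 4 testis libraries whose titles name RppH and the 4 testis libraries with no enzyme. Each arm holds 2 libraries labelled acid and 2 labelled base, numbered 1 and 2, and these terms are not explained in the labels. All mice received control diet and were 8 to 12 weeks old, and RNA under 40 nt was isolated from a gel before cloning. No label gives a genotype, says whether the numbers stand for separate animals, or says whether acid and base libraries share RNA, so p-values measure the spread between these libraries. The 4 AlkB libraries of testis, and the 8 untreated and RppH libraries of cauda epididymis tissue prepared in the same layout, are used only where named.

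RppH is a bacterial enzyme that trims triphosphate, and less readily capped, 5′ ends of RNA to the monophosphate that a ligase needs to attach a 5′ adapter. MicroRNAs and PIWI-interacting RNAs (piRNAs) are made with a 5′ monophosphate, whereas the primary transcripts of RNA polymerase III, such as 5S ribosomal RNA (rRNA), begin with a triphosphate. Adult testis is rich in piRNAs, which guide PIWI proteins in male germ cells, and in microRNAs of the mir-34 and mir-449 family and of an X-linked cluster expressed in germ cells.

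The microRNAs below are shown because their rows carried the largest changes or because members with the same seed moved by different amounts. Sequences are the mature forms of RefSeq, build GRCm38.p6, written 5′ to 3′ with the seed, bases 2 to 8, in capitals. A row of the table stands for a microRNA gene, so its reads are not divided between the arms of the hairpin. Of the 313 microRNA rows tested without 1 library described next, 289 had a mature sequence in the RefSeq table.
mmu-miR-184-3p: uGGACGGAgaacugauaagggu
mmu-miR-182-5p: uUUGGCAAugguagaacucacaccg
mmu-miR-10a-5p: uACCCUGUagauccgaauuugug
mmu-miR-10b-5p: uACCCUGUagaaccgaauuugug
mmu-miR-181a-5p: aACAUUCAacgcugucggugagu
mmu-miR-181c-5p: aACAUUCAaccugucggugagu
mmu-miR-181b-5p: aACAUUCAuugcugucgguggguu
mmu-miR-181d-5p: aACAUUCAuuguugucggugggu
mmu-miR-30a-5p: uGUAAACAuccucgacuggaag
mmu-miR-30e-5p: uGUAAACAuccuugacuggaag
mmu-miR-34b-5p: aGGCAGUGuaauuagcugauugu
mmu-miR-449a-5p: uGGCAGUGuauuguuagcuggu
mmu-miR-449c-5p: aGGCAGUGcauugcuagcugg
mmu-miR-463-5p: uACCUAAUuuguuguccaucau

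In that annotation mmu-miR-10b-5p lies at chr2:74726074-74726096 on the plus strand, in an intron of Hoxd3 and Hoxd4 by GENCODE M21. The sequence of mmu-miR-10a-5p lies at chr11:96317186-96317208 on the plus strand, outside any other annotated gene. Counting from 1 at the 5′ end, the pair differ by the single substitution U12A, from miR-10a to miR-10b. The pair miR-30a-5p and miR-30e-5p differ by C13U, and over their shared length miR-181b-5p and miR-181d-5p differ by C12U. The sequences of miR-181c and miR-181d lie in an intron of Nanos3 on mouse chromosome 8, those of miR-449a and miR-449c in an intron of Cdc20b on chromosome 13, and that of miR-463 on the X chromosome.

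The untreated libraries held 12273693 to 14664480 reads assigned to rRNA, transfer RNA (tRNA), microRNA, piRNA and repeats, and the RppH libraries 484914 to 6458077. The shallowest is the library labelled RppH base 1, and its profile stood apart from those of the other testis libraries. Its reads per 1000000 assigned (CPM) summed over 5 epithelial microRNAs of the mir-200 family to 8034, against 37.0 to 148 in the untreated libraries and 48.2 to 153 in the other 3 RppH libraries. The same sum was 999 to 25623 in the untreated and RppH libraries of cauda epididymis. Mir10a, a Hox-cluster microRNA abundant in epididymis, stood at 28407 CPM there and at 460 to 1023 CPM in the other 7 testis libraries. Among the 6 epididymis markers, 4 were higher in that library than in the other 7 testis libraries, and 1, Mir204, was lower than in all of them. All 5 epithelial and all 5 blood markers were higher than in the other 7, as were 6 of 16 germ cell markers, such as Mir743 at 138 CPM, while 3 were lower. The 16 germ cell microRNAs, 1 of which was at 0, summed to 10076 CPM in it, between the 5160 to 6165 CPM of the other RppH libraries and the 14600 to 17236 CPM of the untreated ones. In epididymis libraries that sum was 182 to 2770 CPM. Its piRNA share of 13.1% compares with 0.22% to 2.33% in epididymis. Mir145a, a smooth muscle marker, was also at 0 in the library labelled RppH base 1. Mir143, another, was at 9164.5 CPM there, at 8879 to 19663 CPM in the other 7 testis libraries and at 14525 to 281725 CPM in epididymis. Rank correlations were taken over 680 rows of at least 10 CPM on average. For the library labelled RppH base 1 they were 0.52 to 0.59 with other untreated and RppH testis libraries. With those of epididymis they were 0.65 to 0.77. Including AlkB and kinase (PNK) libraries, the ranges were 0.42 to 0.63 and 0.40 to 0.77. RppH base 2 gave 0.78 to 0.99 with testis libraries other than RppH base 1, and 0.15 to 0.68 with those of epididymis. Because its class shares, given below, stand apart, comparisons were made with the library labelled RppH base 1 (8 libraries) and without it (7 libraries).

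**Figure D1:**
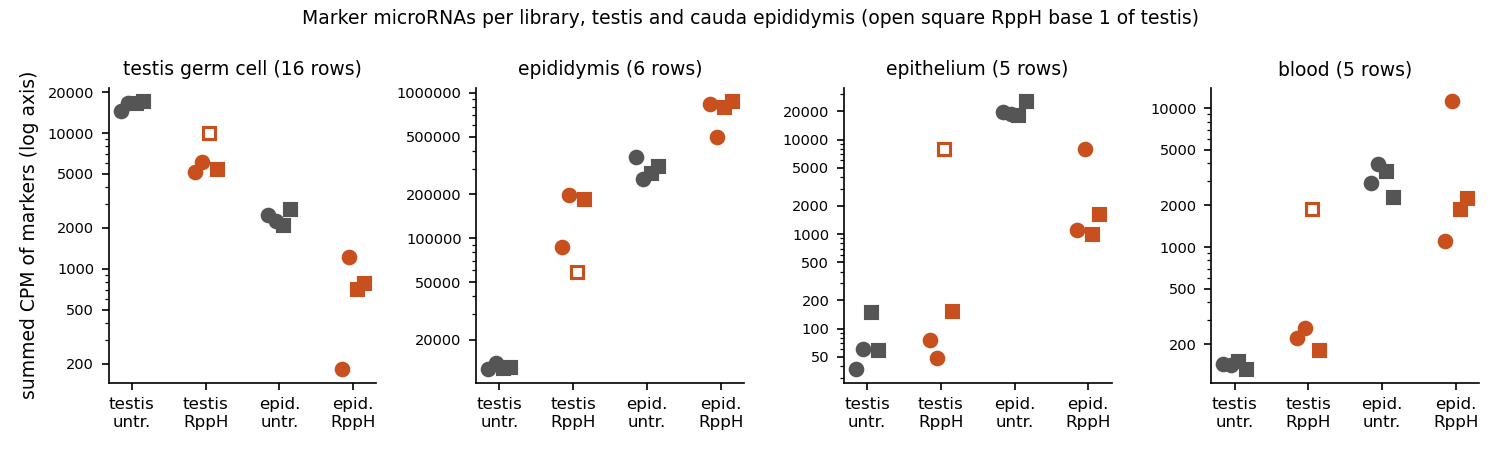
Summed CPM of marker microRNAs (log axis) in each untreated (grey) and RppH (orange) library of testis and cauda epididymis, with circles for acid, squares for base and an open square for the testis library labelled RppH base 1. The open square lies at 8034 CPM for epithelial markers, where the other 7 testis libraries lie between 37.0 and 153.

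RppH libraries held a smaller share of piRNA reads and a larger share of microRNA and rRNA reads. In the order acid 1, acid 2, base 1 and base 2, which is kept below, the piRNA share was 91.5%, 90.9%, 90.3% and 90.8% untreated, and 80.2%, 71.6%, 13.1% and 72.7% with RppH. The microRNA share was 6.72%, 7.65%, 7.06% and 7.66% untreated and 14.04%, 24.50%, 15.98% and 23.53% with RppH. The rRNA share was 1.31%, 0.95%, 1.64% and 1.02% untreated and 4.86%, 3.49%, 25.2% and 3.04% with RppH. In none of these 3 classes did the arms overlap. The rise of the microRNA share is not one of the class at large. All microRNA rows summed to 67219.5, 76461, 70576 and 76641 CPM untreated and to 140400, 245048, 159781 and 235251 CPM with RppH. Mir10b alone held 11910, 13184, 11687 and 12290 CPM and 86042, 197047, 29741 and 184728 CPM of these. Apart from the library labelled RppH base 1, the remaining microRNA reads summed to less in each RppH library than in any untreated one.

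Over all 8 libraries the piRNA share was 90.9% ± 0.49 (SD, n = 4) untreated and 59.4% ± 31.1 (SD, n = 4) with RppH, and without the library labelled RppH base 1 the latter was 74.8% ± 4.66 (SD, n = 3). The microRNA share was 7.27% ± 0.46 untreated, 19.5% ± 5.28 in 4 RppH libraries and 20.7% ± 5.78 in 3. The rRNA share was 1.23% ± 0.32 untreated, 9.15% ± 10.7 in 4 RppH libraries and 3.80% ± 0.95 in 3. For each of these classes the two-sided exact permutation test gave p = 0.029, adjusted p = 0.048 over 5 classes, with and without the library labelled RppH base 1. That is the smallest p these designs allow, and regrouping within acid and within base gives at best 0.056. The library labelled RppH base 1 was set aside for its class shares. The shares and p without it therefore describe the remaining libraries and are not independent evidence. With the replicate block, changing signs within the 4 pairs of equal number and chemistry, p was 0.13, the smallest possible. Repeats made up 0.10% of untreated reads and their difference did not pass (exact p = 0.63). The tRNA share was 0.36% to 0.95% untreated, and 0.83%, 0.32%, 45.4% and 0.66% with RppH (exact p = 0.37 with 4 and 0.71 with 3 RppH libraries). The exact binomial 95% interval of the 45.4%, which covers counting error only, is 45.3% to 45.6%.

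**Figure D2:**
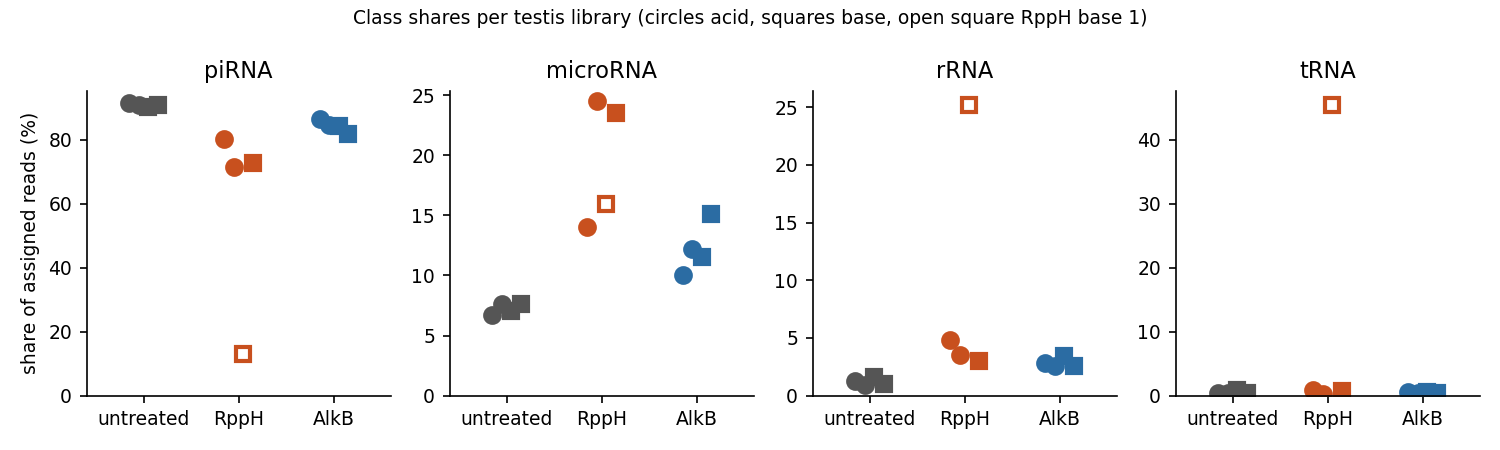
Share of assigned reads per class in each testis library, untreated (grey), RppH (orange) and AlkB (blue), with circles for acid, squares for base and an open square for the library labelled RppH base 1. The 4 RppH and the 4 AlkB libraries lie below every untreated library for piRNA and above every untreated library for microRNA and rRNA. The open square is at 45.4% for tRNA.

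Row by row, with acid or base as a term, 77 of 865 rows tested (8.90%) passed edgeR's quasi-likelihood test over all 8 libraries at an adjusted p under 0.05, 46 higher (5.32%) and 31 lower (3.58%) with RppH. Scaled by library totals alone the split was 30 higher and 43 lower. With the tissue number as a block 20 rows passed, 13 higher and 7 lower. Leaving out any 1 untreated library, RppH acid 1 or RppH acid 2 left 0 rows past the test, and leaving out RppH base 2 left 19. Without the library labelled RppH base 1, 573 of 922 rows (62.1%) passed, 289 higher (31.3%) and 284 lower (30.8%), among them all 77. Scaled by library totals alone, which moved the median log2 change of all rows from -0.03 to -0.28, the split was 191 higher and 357 lower. Counts of members below are to be read against these shares, and log2 changes are relative to the trimmed mean of M values (TMM) scaling. In CPM, all RppH libraries lay above all untreated ones for 12.8% of rows and below them for 31.7% with 8 libraries, and for 23.0% and 43.1% with 7.

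Mir10b, which lies in a Hox cluster, held the most reads of the microRNAs that rose. It stood at 11910, 13184, 11687 and 12290 CPM untreated and at 86042, 197047, 29741 and 184728 CPM with RppH. All 4 RppH libraries lay above all untreated ones, the library labelled RppH base 1 the least. The log2 change was 3.64 ± 0.74 (SE, adjusted p = 0.030) with 8 libraries and 3.96 ± 0.33 (adjusted p = 0.00018) with 7. With 8 libraries and the tissue number as a block it did not pass (adjusted p = 0.057). Mir10b is also an epididymis marker. Of the other markers in that list, 3 also rose over 7 libraries. Mir204 was at 111 to 124 CPM untreated and 129 to 240 CPM in the other 3 RppH libraries (log2 change 0.85, adjusted p = 0.021), and Mir205 at 0.68 to 3.91 and 1.97 to 15.5 CPM (2.40, adjusted p = 0.019). Mir10a is described below, and Mir196b (0.55) and Mir146b (-0.16) did not pass. The part of epididymal RNA in the Mir10b values was not tested.

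Mir182, a member of the mir-183 cluster, was at 394, 342, 385 and 311 CPM untreated and 1907, 4808, 2209 and 5291 CPM with RppH. Mir184, a highly conserved microRNA with a single gene, was at 22.2, 35.3, 34.1 and 45.9 CPM untreated and 456, 348, 235 and 668 CPM with RppH. Neither microRNA overlapped between arms. Their log2 changes over 7 libraries were 3.77 ± 0.39 (SE) and 4.17 ± 0.21, and both passed with 8 libraries too (adjusted p = 0.015 and 0.014). Mir191 rose by 1.70 ± 0.19 and Mir25 by 1.31 ± 0.11 on the log2 scale, and both also passed with 8 libraries (adjusted p = 0.026 each), though not with the tissue number as a block (adjusted p = 0.057 and 0.059).

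Mir34c, among the most abundant germ cell microRNAs, was at 8088, 9016, 9534 and 9541 CPM untreated. With RppH it was at 554, 671, 5415 and 616 CPM. All 4 RppH libraries lay below the untreated range, and the library labelled RppH base 1 was nearest to it. The log2 change was -3.60 ± 0.12 (SE, adjusted p = 6.3e-06) with 7 libraries and -2.52 ± 0.78 (adjusted p = 0.088) with 8. Mir463, of the X-linked cluster, fell from 147, 183, 144 and 196 CPM to 7.12, 12.5, 37.1 and 2.88 CPM, with a log2 change of -4.30 ± 0.39 over 7 and -3.44 ± 0.73 (adjusted p = 0.032, and 0.062 with the tissue number as a block) over 8 libraries. Mir22, a microRNA of many cell types, was at 2457, 3391, 3115 and 3565 CPM untreated and at 605, 264, 6849 and 339 CPM with RppH. The library labelled RppH base 1 lay above the untreated range for Mir22, and its log2 change of -2.72 ± 0.30 passed over 7 libraries (adjusted p = 0.00043), while that over 8 did not (adjusted p = 0.51). Mir29a, Mir181c and Mir7234 likewise passed with 7 libraries, by -2.69, -2.84 and -2.87 on the log2 scale, and not with 8 (adjusted p = 0.70, 0.87 and 0.056).

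**Figure D3:**
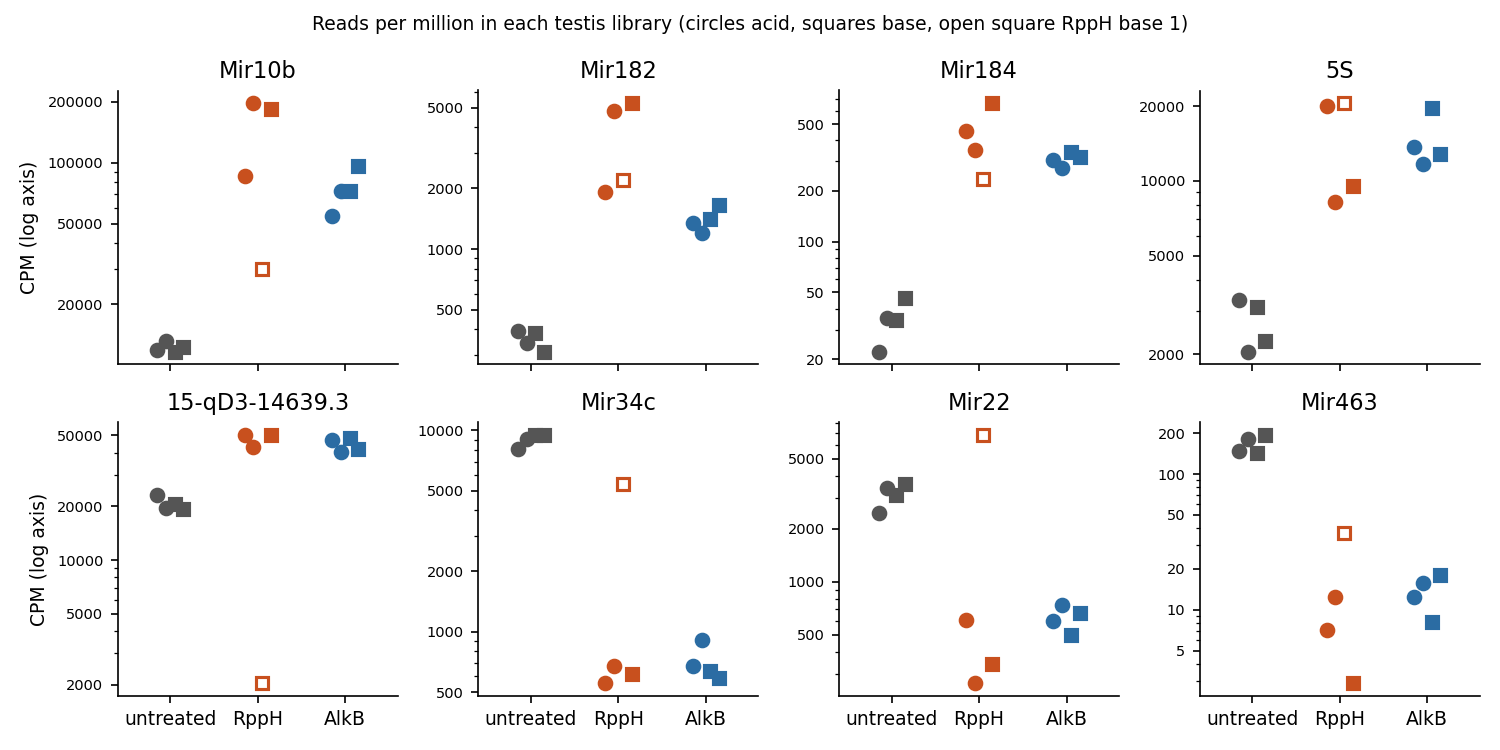
CPM (log axis) of 8 rows in each testis library, untreated (grey), RppH (orange) and AlkB (blue), with circles for acid, squares for base and an open square for the library labelled RppH base 1. Mir34c lies at 8088 to 9541 CPM untreated and at 554 to 671 CPM in 3 RppH libraries, with the open square at 5415 CPM.

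All 5 tested members of the mir-34 and mir-449 family fell with 7 libraries, out of 6 in the table. Their median log2 change was -3.40, against -0.55 for the 313 microRNA rows tested, of which 79 rose and 116 fell (with 8 libraries 18 and 26 of 278). Mir34b went from 545 to 661 CPM untreated to 183 to 307 CPM in the 3 RppH libraries (log2 change -1.16 ± 0.17, SE), and Mir449a from 494 to 784 CPM to 109 to 181 CPM (-1.83 ± 0.25), neither passing with 8 libraries (adjusted p = 0.095 and 0.066). Mir449c was at 112 to 121 CPM untreated and 4.31 to 16.3 CPM in those 3, and had no read in the library labelled RppH base 1, where 3 reads would be 6.19 CPM. With all 8 libraries 2 of the 5 fell, Mir34a and Mir449c, and with the tissue number as a block 1, Mir449c no longer passing (adjusted p = 0.055).

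The X-linked cluster did not move as 1 block. Of 20 members tested with 7 libraries, out of 21, 11 fell and 2 rose, with a median of -0.88, and with 8 libraries 6 fell and none rose, or 2 and none with the tissue number as a block. Mir883a fell by 3.14 ± 0.27 (SE), Mir465 by 2.49 ± 0.19 and Mir880 by 2.29 ± 0.26 on the log2 scale over 7 libraries, and Mir465 and Mir880 also with 8 (adjusted p = 0.014 and 0.022). The members that rose were the abundant Mir470, from 2716 to 3052 CPM untreated to 4814 to 5684 CPM (log2 change 1.15 ± 0.10), and Mir878, from 318 to 374 CPM to 765 to 1141 CPM (1.73 ± 0.18). Neither passed with 8 libraries, where the library labelled RppH base 1 held 415 CPM of Mir470 and 63.9 CPM of Mir878. Mir881, at 1786 to 2177 CPM untreated and 1819 to 2213 CPM in the 3 RppH libraries, overlapped between arms and did not pass (adjusted p = 0.085).

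In the mir-17-92 family and its paralogs 3 of 11 tested members rose and 7 fell with 7 libraries (median -2.50), and 2 rose and 1 fell with 8. Mir93 fell by 2.50 ± 0.35 (SE) on the log2 scale, Mir17 by 2.20 ± 0.18 and Mir20a by 3.10 ± 0.36, whereas Mir106b rose by 1.30 ± 0.13, all over 7 libraries. Mir17 and Mir106b also passed with 8 (adjusted p = 0.040 and 0.023). Mir92-1 did not pass over 7 (-1.39 ± 0.55, adjusted p = 0.071), but did with the tissue number as a block (adjusted p = 0.039). Of 13 let-7 rows tested with 7 libraries, 4 rose and 2 fell (median -0.01), scaled by library totals alone 2 rose and 5 fell, and with the tissue number as a block 4 rose and 5 fell. With 8 libraries edgeR passed 0 of the 13, with 4 higher at an unadjusted p under 0.05, and DESeq2 called 3 higher. Mirlet7c-2 was at 232 to 361 CPM untreated and 496 to 551 CPM in the 3 RppH libraries, and Mirlet7g at 343 to 473 CPM and 113 to 161 CPM.

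Rows that share a seed moved in 1 direction for most seeds and in both for some. Here and below, seeds shared by exactly the same set of rows are counted once. Among the tested microRNAs with a RefSeq sequence, 64 seeds were so shared by at least 2 rows, and for 41 of them at least 2 rows passed with 7 libraries. Of these 41, 22 had only falling rows, 7 only rising rows and 12 rows in both directions. With 8 libraries 3 seeds had at least 2 rows past the test, 2 of them in both directions. A gene with 2 arms can enter under 2 seeds, and copies with 1 mature sequence, such as Mir181a-1 and Mir181a-2, share reads, so these seeds are not independent of each other. Some seeds with rows in 1 direction hold only such copies, as with Mir138-1 and Mir138-2 or Mir129-1 and Mir129-2. For those, agreement follows from the shared reads.

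The mir-181 family, chosen for description after its values were seen, split by sequence. Mir181d was at 11.9 to 17.2 CPM untreated and 114, 78.4, 192 and 96.7 CPM with RppH, a log2 change of 2.96 ± 0.16 (SE) over 7 and 3.21 ± 0.33 (adjusted p = 0.0087) over 8 libraries. Mir181b-1 and Mir181b-2 rose by 1.47 ± 0.15 and 1.49 ± 0.12 over 7 libraries and did not pass with 8 (adjusted p = 0.16 each). Mir181c, whose gene lies next to that of Mir181d in the same intron, was at 223 to 277 CPM untreated and at 35.2, 18.4, 1604 and 33.1 CPM with RppH. Mir181a-1 went from 699 to 950 CPM to 155 to 311 CPM in the 3 RppH libraries, a log2 change of -1.84 ± 0.21 that did not pass with 8 (adjusted p = 0.078).

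Mir10a rose far less than Mir10b, from which its mature form differs by the 1 base given above. Apart from the library labelled RppH base 1 it was at 460 to 892 CPM untreated and 607, 809 and 1023 CPM with RppH, so the arms overlapped, with a log2 change of 0.73 ± 0.19 (SE, adjusted p = 0.017 with 7 and 0.25 with 8 libraries). In the mir-30 family all 7 rows passed with 7 libraries, 2 rising and 5 falling. With 8 libraries edgeR passed 0 of the 7, with 2 higher at an unadjusted p under 0.05, and DESeq2 called 2 higher. Mir30e rose by 1.21 ± 0.18 and Mir30a fell by 1.01 ± 0.11 on the log2 scale, while Mir30d fell by 2.25 ± 0.17. Mir30f, the other rising row, had nearly the same level as Mir30e in each library, as with 644 and 630 CPM in RppH acid 1, so the pair may count the same reads.

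**Figure D4:**
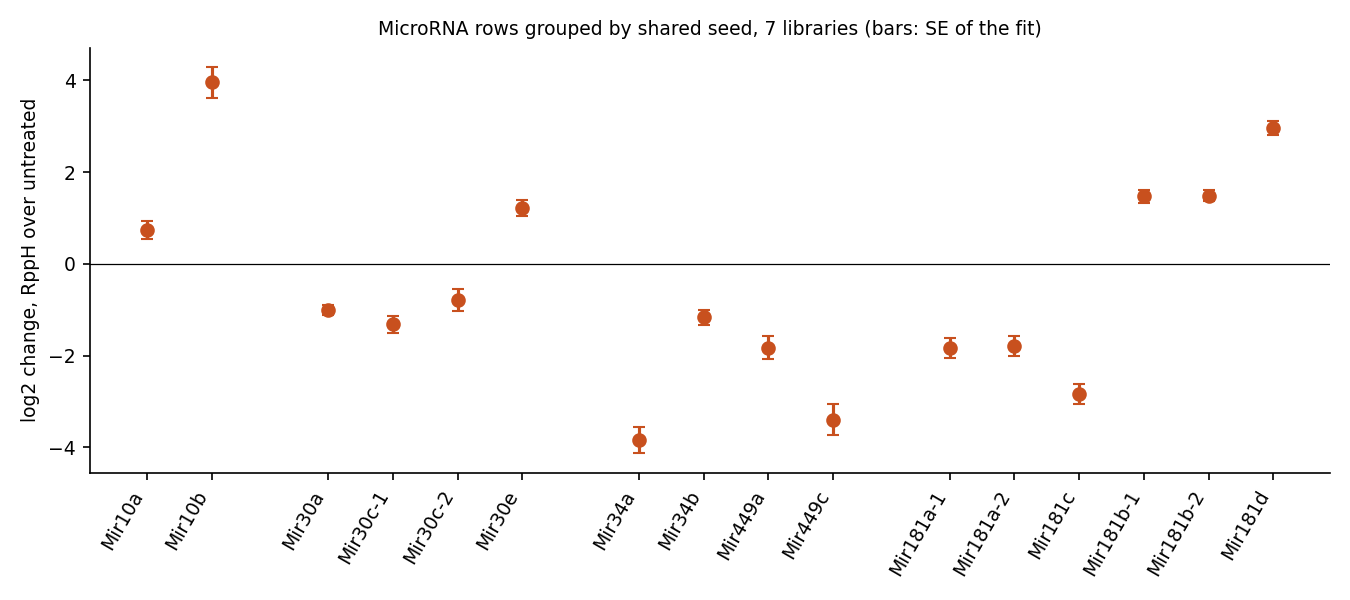
Log2 change, RppH over untreated in 7 testis libraries, of microRNA rows grouped by shared seed, with bars for the SE of the fit. Mir181d (2.96) and Mir181c (-2.84) lie on opposite sides of 0, as do Mir30e (1.21) and Mir30a (-1.01), while the 4 rows of the mir-34 and mir-449 seed all lie below it.

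The rRNA rows were higher with RppH. 5S rRNA, the polymerase III transcript, was at 3312, 2050, 3112 and 2272 CPM untreated and 19934, 8243, 20589 and 9550 CPM with RppH, with no overlap and a log2 change of 2.41 ± 0.34 (SE, adjusted p = 0.0013) over 7 and 2.66 ± 0.46 (adjusted p = 0.023) over 8 libraries. 5.8S rRNA, which is cut from the 45S precursor, was at 994, 697, 1205 and 724 CPM untreated and 6705, 16149, 12802 and 6982 CPM with RppH, a log2 change of 3.69 ± 0.45 over 7 libraries. The 45S row, which also holds the reads of 5.8S, 18S and 28S, rose by 1.66 ± 0.24 and 18S by 1.35 ± 0.35 over 7 libraries, neither passing with 8 (adjusted p = 0.078 and 0.10). 28S did not pass (0.83 ± 0.31, adjusted p = 0.060), but passed with the tissue number as a block (adjusted p = 0.00025). Thus 4 of 5 rows rose with 7 and 2 of 5 with 8 libraries.

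Mir320 and Mir484 come from hairpins that are transcribed directly with a cap. Mir320 was at 13.6, 14.1, 14.99 and 13.7 CPM untreated and 31.4, 26.3, 43.3 and 19.0 CPM with RppH, higher in all 4 libraries (log2 change 1.08 ± 0.15, SE, adjusted p = 0.0011 with 7 and 0.037 with 8 libraries, the latter 0.076 with the tissue number as a block). Mir484 was at 3.20, 5.13, 4.56 and 5.01 CPM untreated and 1.55, 1.64, 66.0 and 1.08 CPM with RppH. It fell by 1.35 ± 0.34 on the log2 scale with 7 libraries (adjusted p = 0.013) and had the opposite sign, 0.94 ± 1.40, with 8. In RppH acid 1, acid 2 and base 2, 3 reads would be 0.46, 0.98 and 1.08 CPM, so the Mir484 values there rest on few reads. With a block for number and chemistry the fall over 7 libraries no longer passed (adjusted p = 0.051), nor did it without untreated acid 2 or without RppH base 2. The mirtron Mir877, spliced rather than cut from its host, was at 0.95 to 2.36 CPM untreated and 9.76 to 26.6 CPM in 3 RppH libraries, and had no read in the library labelled RppH base 1. It was the only 1 of 3 mirtrons tested and passed with 7 libraries (log2 change 3.94 ± 0.32) but not with 8 (adjusted p = 0.055).

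Among 46 of 53 tRNA isoacceptors tested, 2 rose and 10 fell with 7 libraries (median -0.30), and 5 and 11 with the tissue number as a block. With 8 libraries edgeR passed 0 of 46, with 5 higher at an unadjusted p under 0.05, and DESeq2 called 13 higher. Glu-TTC fell from 548, 455, 433 and 383 CPM to 73.6, 34.5 and 63.3 CPM in the 3 RppH libraries and stood at 7117 CPM in the library labelled RppH base 1 (tRNA Glu-TTC, log2 change -2.75 ± 0.26, SE, over 7 libraries, and 0.15 with adjusted p = 0.99 over 8). tRNA Gly-GCC, the source of the main tRNA fragment of epididymis and sperm, was at 537, 482, 2714 and 590 CPM untreated and 4127, 1704, 155718 and 2880 CPM with RppH. Untreated base 1 lay above RppH acid 2, and the rise of 2.12 ± 0.68 (adjusted p = 0.034) over 7 libraries did not pass with all 8 (adjusted p = 0.10) and did not pass without untreated acid 1, untreated acid 2, RppH acid 1 or RppH acid 2 (adjusted p = 0.052 to 0.11). Untreated base 1 also held 83.3 CPM of the epithelial Mir141, against 5.01 to 7.69 CPM in the other 3 untreated libraries, and RppH base 2 held 85.2 CPM. What part this has in the tRNA values was not tested.

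The piRNA rows divide into those named after a protein-coding gene, called genic here, and those named by a chromosome band, called intergenic. Of 243 genic rows tested with 7 libraries, out of 250, 142 rose and 30 fell (median 0.52). Of 217 intergenic rows 46 rose and 117 fell (median -0.24). With 1 row per locus, chosen after seeing the data because rows of 1 locus share reads, 62 of 114 genic rows rose and 14 fell, and 29 of 100 intergenic rows rose and 46 fell. Scaled by library totals alone, 103 genic rows rose and 45 fell, and 13 intergenic rows rose and 150 fell. With 8 libraries 24 genic rows rose and 1 fell, and 0 intergenic rows rose and 3 fell by edgeR, with 1 higher and 19 lower at an unadjusted p under 0.05 and 3 and 43 by DESeq2. With the tissue number as a block 2 genic rows rose and 2 intergenic rows fell over 8 libraries. Summed, genic rows were 32682 to 34433 CPM untreated and 28433 to 31640 CPM in the 3 RppH libraries, and intergenic rows 869818 to 880059 and 687552 to 769889 CPM, sums in which a shared read can count more than once.

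Rows of 1 locus did not all move alike. The row 15-qD3-14639.3 was at 23163, 19610, 20776 and 19325 CPM untreated and 50145, 43031, 2044 and 50605 CPM with RppH, a log2 change of 1.47 ± 0.08 (SE) over 7 and 1.06 ± 0.87 (adjusted p = 0.47) over 8 libraries. The rows 15-qD3-14639.1 and 15-qD3-14639.2 of the same locus, at 6125 to 6352 CPM untreated, did not pass (-0.04 ± 0.05 and -0.02 ± 0.04). The abundant row 9-qA5.3-24188.1 went from 28586 to 30483 CPM to 14608 to 17762 CPM in the 3 RppH libraries (log2 change -0.62 ± 0.04), while 17-qA3.3-27363.1 stayed between 33172 and 36824 CPM in the 7 libraries and still passed at 0.29 ± 0.01. Among genic rows pi-Socs7.2 rose from 24.6 to 26.1 CPM to 119 to 163 CPM (2.78 ± 0.09), and pi-Tmem194.3 fell from 1945 to 2880 CPM to 704 to 788 CPM (-1.56 ± 0.14). In the library labelled RppH base 1 pi-Socs7.2 was at 14.4 CPM, below the untreated range. With 8 libraries none of 9-qA5.3-24188.1, 17-qA3.3-27363.1, pi-Socs7.2 and pi-Tmem194.3 passed (adjusted p = 0.33, 0.96, 0.070 and 0.057). 10-qB5.1-221.1 rose by 2.51 ± 0.09 over 7 libraries (adjusted p = 0.19 over 8), and 13-qA3.1-213.1 fell by 2.59 ± 0.10 and passed with 8 libraries too (adjusted p = 0.0087).

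**Figure D5:**
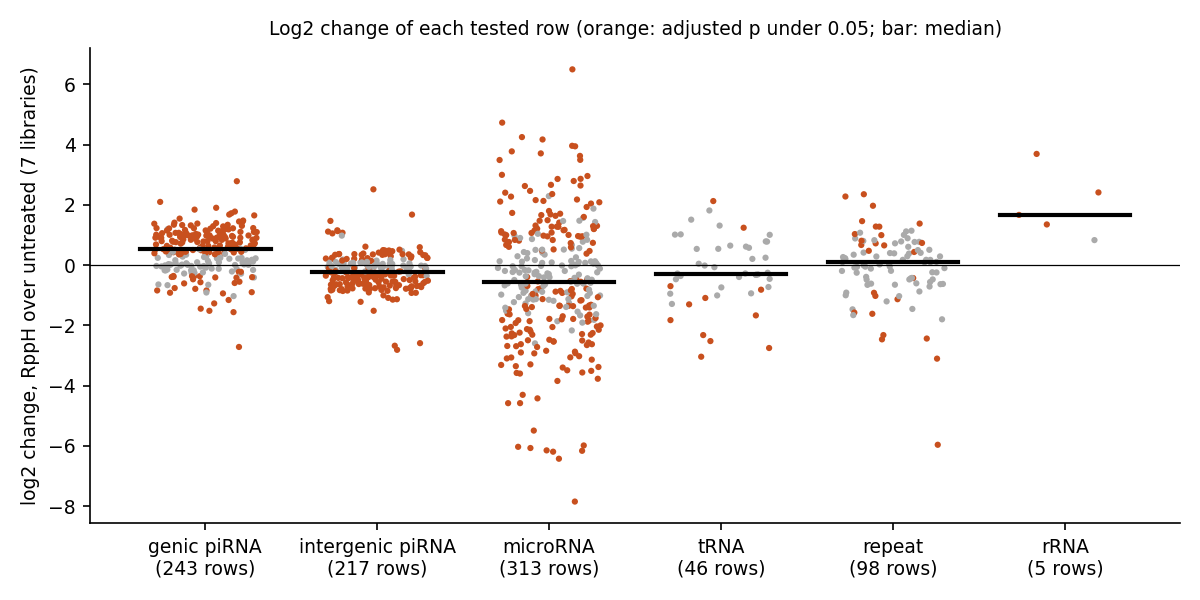
Log2 change of each tested row, RppH over untreated in 7 testis libraries, by class, with orange for an adjusted p under 0.05 and a bar at the median. The genic piRNA rows have a median of 0.52 and the intergenic ones of -0.24, and microRNA rows spread farthest in both directions.

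Of 98 repeat rows tested with 7 libraries 16 rose and 11 fell, or 8 and 13 scaled by library totals alone, and with 8 libraries 2 rose and 1 fell of 78. LINE rows accounted for 5 rises and 1 fall among 27 tested (1 and 1 of 26 with 8 libraries), with L1MdTf_III:L1 at 17.3 to 20.6 CPM untreated and 33.8 to 44.9 CPM with RppH, the library labelled RppH base 1 included (log2 change 1.28 ± 0.12, SE, adjusted p = 0.023 over 8 libraries). LTR rows gave 9 rises and 10 falls among 69, or 3 and 11 scaled by library totals alone, and with 8 libraries 0 of 50 passed by edgeR, with 1 higher and 5 lower at an unadjusted p under 0.05 and 4 and 7 by DESeq2. The SINE row B2:SINE2/tRNA, 1 of 4 and the only one tested, rose from 0.27 to 0.70 CPM to 0.77 to 2.88 CPM in 3 RppH libraries and was at 43.3 CPM in the library labelled RppH base 1. It passed with 7 and not with 8 libraries (adjusted p = 0.11), and no satellite row was tested. Of the other microRNA lists, with 7 libraries, mir-200 had 1 rise among 5 rows (2 rises with the tissue number as a block, and 0 rises and 1 fall scaled by library totals alone), Hox-cluster and epididymis microRNAs 5 rises and 3 falls among 14, smooth muscle microRNAs 2 falls among 4, and blood microRNAs 1 rise and 2 falls among 6. With 8 libraries 1 Hox-cluster and epididymis row rose and 1 smooth muscle row fell. edgeR passed no mir-200 or blood row there, with 1 higher in each list at an unadjusted p under 0.05, and DESeq2 called 3 and 1 higher.

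The effect of RppH was compared between acid and base libraries as an interaction. With edgeR 0 of 894 rows (0%) passed with 8 libraries and 0 of 964 without the library labelled RppH base 1, where RppH base 2 stands alone and is assumed to vary like the others. At an unadjusted p under 0.05 there were 15 rows higher and 15 lower in base with 8 libraries, and 13 and 53 with 7, and DESeq2 called none with 8. Without RppH base 2, so that the library labelled RppH base 1 stood for base, 584 rows passed.

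AlkB, a demethylase that removes methyl groups from RNA bases, does not act on 5′ ends. Its libraries are other samples than those of the RppH arm but carry the same numbers and chemistry labels. Whether they share tissue or RNA with that arm is not stated, and the fit holds no term for the number. Mir10b was at 54471, 72435, 72159 and 96128 CPM with AlkB, Mir184 at 274 to 340 CPM, 5S at 11680 to 19597 CPM, 15-qD3-14639.3 at 40525 to 48446 CPM and Mir34c at 588 to 910 CPM. With all 8 libraries 0 of 807 rows (0%) differed between RppH and AlkB with edgeR, 67 higher and 28 lower with RppH at an unadjusted p under 0.05, while DESeq2 called 104. Without the library labelled RppH base 1, 299 of 830 rows (36.0%) passed, 169 higher (20.4%) and 130 lower (15.7%) with RppH.

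In this direct comparison over 7 libraries Mir10b was higher with RppH than with AlkB by 1.29 on the log2 scale (95% interval 0.39 to 2.19, adjusted p = 0.025), Mir182 by 1.69 (0.74 to 2.65) and Mir184 by 0.80 (0.43 to 1.18). 5.8S was higher by 1.83 (0.75 to 2.91) and 45S by 0.91 (0.68 to 1.15). 5S did not pass, with a difference of -0.11 (-1.09 to 0.87), nor did Mir34c, at -0.09 (-0.53 to 0.34), Mir181c, at 0.00 (-0.61 to 0.62), or Mir320, at 0.45 (-0.12 to 1.03). Lower with RppH were tRNA Asp-GTC by -2.22 (-3.37 to -1.06), the retroviral row RLTR4I_MM:ERV1 by -1.23 (-1.86 to -0.61), Mir148a by -0.99 (-1.50 to -0.47) and Mir181a-1 by -0.94 (-1.50 to -0.39). Some markers of other cell types were higher with RppH too. All 4 mir-200 rows tested were higher, Mir141 by 3.81 (1.93 to 5.69) and Mir429 by 2.16 (1.20 to 3.11), as was Mir205 by 3.76 (2.18 to 5.33), and 8 of 14 Hox-cluster and epididymis rows. In the other marker lists, 0 of 4 blood rows and 1 of 3 smooth muscle rows were higher, against 20.4% of all rows. Mir141 was at 0.72 to 7.16 CPM with AlkB and 18.05 to 85.2 CPM in the 3 RppH libraries. The part of such RNA in the Mir10b difference was not tested. Genic piRNA rows gave 73 higher and 21 lower among 241 and intergenic rows 19 higher and 70 lower among 217.

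In cauda epididymis tissue, of 680 rows tested, 35 were higher (5.15%) and 157 lower (23.1%) with RppH than untreated, by the same edgeR test over 8 libraries. Mir10b was at 164329 to 237492 CPM untreated and 440016 to 853829 CPM with RppH, and Mir22 at 10386 to 17632 CPM and 198 to 1943 CPM. 5S was at 6778 to 13004 CPM untreated and 5135 to 12527 CPM with RppH there, overlapping arms. The difference of the RppH effect between the tissues passed for 0 of 901 rows (0%) with edgeR over 16 libraries, with 110 higher and 56 lower in testis at an unadjusted p under 0.05, while DESeq2 called 187. Without the library labelled RppH base 1, 31 of 939 rows (3.30%) passed, 22 with the higher effect in testis (2.34%) and 9 with the lower (0.958%). Rows with the higher effect in testis included the epithelial and epididymal markers Mir141 (4.29 ± 0.98, SE, adjusted p = 0.022), Mir205 (4.23 ± 0.91), Mir196b (4.53 ± 0.83) and Mir429 (2.99 ± 0.80), which RppH libraries of epididymis held at lower levels than untreated ones. Mir141, for example, was at 12733 to 18233 CPM untreated and 604 to 5414 CPM with RppH there. tRNA Val-CAC, at 746 to 1660 CPM untreated and 316 to 960 CPM in 3 RppH libraries of testis, fell in epididymis from 26965 to 78953 CPM to 418 to 2348 CPM. The difference of its log2 changes was 4.27 ± 0.87 (SE, adjusted p = 0.0195). For 5S the difference was 1.60 ± 0.62 and did not pass (adjusted p = 0.15), nor did that for Mir10b (0.83 ± 0.68, adjusted p = 0.47).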

How the data were processed

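Per the file headers, the authors deposited read counts, not scaled, for rRNA, tRNA, microRNA, piRNA and repeat rows of testis and cauda epididymis tissue. The build was mm10, per the submitters' processing notes. Which aligner and counter the authors ran is not stated in the sources at hand. The 28S, 18S and 5.8S rows were left out of totals because the 45S row holds their reads, and tRNA copies were summed to isoacceptors.

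Counts were fitted with edgeR 4.0.16 (R 4.3.3, limma 3.58.1): filterByExpr, TMM scaling, a term for acid or base, the robust quasi-likelihood F test and Benjamini-Hochberg adjustment over all rows tested at 0.05. The interval of a log2 difference uses its SE and the residual degrees of freedom. DESeq2 1.42.0 was an alternative. Class shares, in percent computed from the deposited counts, were compared by exact permutation over every regrouping, and binomial intervals came from scipy 1.17.1. On simulated counts the fits recovered 93 of 100 changed rows of 1 log2 unit and 100 of 100 of 2 units with 8 libraries (873 rows, 12 false calls), and 91 and 100 with 7 (913 rows, 8 false calls). The simulated libraries shared the pooled untreated profile and a fixed dispersion, and none stood apart. Changed rows were drawn only from those above a set level. These counts therefore do not measure the power of the fits on the real libraries. Deviations of number 1 from number 2 correlated between untreated and RppH by 0.24 in acid and 0.34 in base libraries (680 rows), the latter with RppH base 1. These weak correlations do not settle whether equal numbers pair the libraries. The main fits hold no term for the number, and those with it as a block are given as alternatives. PCR copies cannot be told from molecules.

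Named rows were the 10 largest rises and falls of at least 100 CPM past the test, the rRNA rows, Mir320, Mir484 and, for each list, its top 4 by mean CPM, of which the leading ones are given with values. Other rows of those lists and seed families given with values were chosen after they were seen. The members, lists and tests were chosen with earlier results of these data known.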

Additional observations from a re-analysis of the deposited data

Results flagged for a closer look

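In 18 of 74 groups of 4 libraries looked at, 1 library stood apart from the other 3 by Dixon's criterion, which chance flags in about 1 of 20 groups. In 16 of these 18 it was the library labelled RppH base 1, which had been set aside because its class shares stand apart, so this count describes it and tests nothing. Its shares were 25.2% for rRNA, 45.4% for tRNA and 13.1% for piRNA. It was the highest of the RppH libraries for 45S (231699 CPM), 28S (162973 CPM), 18S (27011 CPM), Mir181c (1604 CPM), Mir22 (6849 CPM), Mir29a (528 CPM), Mir34c (5415 CPM), Mir484 (66.0 CPM), Mir883a (47.4 CPM), pi-Nsd1.4 (177 CPM), pi-Ppp1r12b.1 (573 CPM), tRNA Glu-TTC (7117 CPM) and tRNA Gly-GCC (155718 CPM). Among untreated libraries, base 1 stood apart with a tRNA share of 0.95% and 2714 CPM of tRNA Gly-GCC.

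The effect of RppH differed between testis and cauda epididymis, by the interaction without the library labelled RppH base 1, for 13 named rows. The difference of log2 changes, testis minus epididymis, was 4.27 for tRNA Val-CAC, 3.70 for tRNA Lys-CTT and 1.76 for pi-Socs7.2. It was 4.29 for Mir141, 4.23 for Mir205, 3.77 for Mir221, 2.99 for Mir429 and 2.31 for Mir181d, the first, the second and the fourth of which are epithelial or epididymal markers. It was -3.72 for 13-qA3.1-213.2, -3.35 for Mir463, -2.48 for 9-qA1-178.1, -2.20 for 9-qA1-178.2 and -1.71 for pi-Rc3h1.1. The piRNA rows were low in epididymis, where pi-Socs7.2 lay between 1.17 and 6.80 CPM and pi-Rc3h1.1 between 5.86 and 24.1 CPM. None of these rows passed with the library labelled RppH base 1 included.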

How the results depend on the processing

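Over 8 libraries the count of 77 rows became 317 with DESeq2, 43 with no filter, 20 with the replicate block of tissue number, 0 with the block by number and chemistry, 120 with no chemistry term, 306 with all testis libraries in 1 fit and 10 with tRNA rows as deposited. Leaving out 1 library gave 0 to 573. The 573 rows found without RppH base 1 lay between 386 and 607 in all other settings, 386 with 1 row per piRNA locus, and between 463 and 580 when 1 more library was left out. With library totals 12 of them had the other sign. The block by tissue number kept 556 of the 573, and with 7 libraries it changed the call of 28S, Mir92-1 and Mir141 (adjusted p = 0.039 with it for the last, 0.12 without) and of no other named row. The acid and base interaction gave 0 to 584 and that between tissues 0 to 31 on leaving out 1 library, and the latter 187 with DESeq2 and 84 with no filter. RppH against AlkB gave 0 to 299, and 104 with DESeq2. The causes were not tested.

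Class differences in points, RppH minus untreated, kept their sign for rRNA, microRNA and piRNA in every setting run. On leaving out 1 library they ranged from 2.57 to 9.96 for rRNA, 10.6 to 14.1 for microRNA and -38.4 to -16.1 for piRNA, and lost the call without any 1 untreated library (adjusted p = 0.14 to 0.33). They also lost it under permutation within acid and base (rRNA 7.93, microRNA 12.2, piRNA -31.5, adjusted p = 0.093) and under sign changes within pairs (adjusted p = 0.21). These last 2 tests cannot reach the threshold. As shares of the total without rRNA, microRNA (14.1) and piRNA (-29.3) had adjusted p = 0.057. The repeat difference was 0.031, and -0.0021 to 0.046 on leaving out 1 library, negative without RppH base 1. Mir484 with 8 libraries turned to -0.24 with the block by number and chemistry and to -1.35 without RppH base 1, the lowest of a range up to 1.36 on leaving out 1 library. With 7 libraries no row with a log2 change recomputed in each setting turned, and 18S, Mir484 and tRNA Gly-GCC lost their call in some settings. At the lowest depth, 484914 reads, 3 reads are 6.19 CPM, so levels below that rest on fewer than 3 reads there.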
